A study of Homo sapiens with 18 samples.

Results

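The genes described here are 10 components of the interleukin-6 (IL6) and JAK-STAT pathway, of 26249 genes with values in each library. They were chosen by symbol: IL6R and IL6ST, the receptor chains; JAK2, a receptor-bound tyrosine kinase; STAT3 and STAT5A, the transcription factors; SOCS2, SOCS3 and CISH, the feedback inhibitors; and PIM1 and PIM2, the serine/threonine kinases. Their messenger RNA was measured by QuantSeq, a method that sequences the 3′ ends of transcripts, in total RNA from human lines labelled XG1 and AMO1. Both are labelled as multiple myeloma, a cancer of plasma cells. Cells of both lines were grown in RPMI medium with fetal bovine serum, and no added cytokine is named in the labels. They were given DMSO, 100 nM YKL-5-124 or 1000 nM YKL-5-124 for 24 h, with 3 replicates in each of 6 groups and 18 libraries in all. YKL-5-124 inhibits CDK7, a kinase that phosphorylates RNA polymerase II as part of TFIIH and activates cell-cycle kinases. Whether replicates came from separate cultures is not in the labels, and p-values cover only the spread between these libraries, which may be technical.

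IL6 binds IL6R, and the pair joins IL6ST (gp130), which carries the signal of the whole IL6 cytokine family. JAK kinases bound to the receptors then phosphorylate STAT factors, which enter the nucleus and switch on target genes. Among these targets are CISH, SOCS2 and SOCS3, whose proteins shut the receptor or kinase down again, and the PIM kinases, which favour survival and protein synthesis. IL6 is a growth and survival factor for plasma cells, XG1 was established as an IL6-dependent line, and PIM2 is a kinase that myeloma cells are known to need.

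The libraries labelled XG1 did not show the plasma-cell profile that the label implies. In DMSO the summed level of 10 plasma-cell markers was 91.6 to 145 FPKM in XG1, with 5 of 10 at a mean of 1 FPKM or more, against 8363 to 9397 FPKM in AMO1, with 10 of 10. The transcription factors IRF4 and PRDM1 averaged 0.53 ± 0.31 and 0.36 ± 0.20 FPKM in XG1, against 77.5 ± 6.13 and 16.1 ± 2.04 FPKM in AMO1 (SD, n = 3 each). Others of the 10 were lower in XG1 but not near the floor. XBP1 averaged 82.6 ± 9.15 FPKM in XG1 and 214 ± 14.8 FPKM in AMO1, and SDC1 24.2 ± 12.4 and 5067 ± 325 FPKM. The summed level of 10 erythroid markers was 4753 to 5158 FPKM in XG1, with 10 of 10 at 1 FPKM or more, against 3.58 to 6.42 FPKM in AMO1, with 1 of 10. The sum of 6 myeloid markers was 69.6 to 99.1 FPKM in XG1 and 0.62 to 1.40 FPKM in AMO1. In XG1 2 of these 6 were at a mean of 1 FPKM or more, ITGAM at 71.7 ± 9.68 FPKM and LYZ at 12.2 ± 5.22 FPKM, and in AMO1 0 of 6. XG1 is used here as the name on the label, and the part of cell type in any difference between the lines was not tested.

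FPKM divides reads by gene length, although a 3′ library gives about the same number of reads for a short and a long transcript, so levels are compared within a gene and not between genes. The summed FPKM of the 92 spike-in controls had group means between 171365 and 184682, whereas the genes' sum at 100 nM and 1000 nM averaged 81% and 73.3% of DMSO in XG1, and 62.2% and 39.6% in AMO1. The median tested gene differed from DMSO by −0.77 on the log2 scale in AMO1 at 1000 nM and by −0.35 at 100 nM, and by −0.15 in XG1 at each dose. Differences are therefore given as deposited and again on a relative scale, on which each library is divided by its size factor so that the median gene stands near 0. In bulk RNA of this kind, fewer cells of a type and less RNA per cell cannot be told apart. CDK7 itself fell in AMO1, by 1.19 at 1000 nM and 0.57 at 100 nM on the log2 scale (limma, adjusted p = 0.00011 and 0.0358), but it was −0.29 and −0.16 on the relative scale and not called there (adjusted p = 0.194 and 0.526). In XG1 its differences were −0.45 and −0.93 (adjusted p = 0.354 and 0.0681).

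Promoter sequences are shown because that of CISH, the gene with the largest difference between the lines, differed from the others in its STAT motifs. STAT factors bind palindromic sites of the form TTCNNNGAA, and TTCCNGGAA is a stricter form that it contains. Both motifs read alike on both strands. They were searched in RefSeq promoter windows (GRCh38.p14) of 300 bases, from 250 before to 50 after each transcription start. Of the 10 genes, 9 had 15 windows between them, since some have several starts. SOCS2 had no promoter window in the source used. The CISH window held 4 matches to TTCNNNGAA, beginning 241, 230, 129 and 112 bases before the start, and those at 241 and 112 also matched TTCCNGGAA. The 14 windows of the other 8 genes held no match, which says only that these letters are not in these windows. Over all 35116 windows, 7.66% held TTCNNNGAA, 1.15% held TTCCNGGAA, and 7 windows held 4 or more matches to the first. The 250 bases before the start are printed for CISH and, as the PIM kinase and receptor genes that fell at both doses in AMO1, for PIM1 and IL6R. Capitals mark TTCNNNGAA.
CISH, chr3:50611775-50612024, minus strand: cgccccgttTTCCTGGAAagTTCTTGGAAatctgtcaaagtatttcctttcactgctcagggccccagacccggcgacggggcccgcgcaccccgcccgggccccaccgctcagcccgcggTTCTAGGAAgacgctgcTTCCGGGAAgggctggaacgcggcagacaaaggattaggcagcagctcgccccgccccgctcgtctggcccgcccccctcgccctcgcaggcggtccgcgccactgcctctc
PIM1, chr6:37169902-37170151, plus strand: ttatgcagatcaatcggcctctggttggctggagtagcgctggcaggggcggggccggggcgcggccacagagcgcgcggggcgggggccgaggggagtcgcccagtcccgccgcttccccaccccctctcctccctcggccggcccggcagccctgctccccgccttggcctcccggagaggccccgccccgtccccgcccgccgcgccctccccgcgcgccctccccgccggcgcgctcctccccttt
IL6R, chr1:154405093-154405342, plus strand: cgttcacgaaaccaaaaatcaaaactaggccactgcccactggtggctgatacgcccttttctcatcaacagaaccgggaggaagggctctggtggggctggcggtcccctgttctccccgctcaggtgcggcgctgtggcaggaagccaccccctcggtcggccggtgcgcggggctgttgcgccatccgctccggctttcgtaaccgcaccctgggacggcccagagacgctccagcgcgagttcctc

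**Figure D1:**
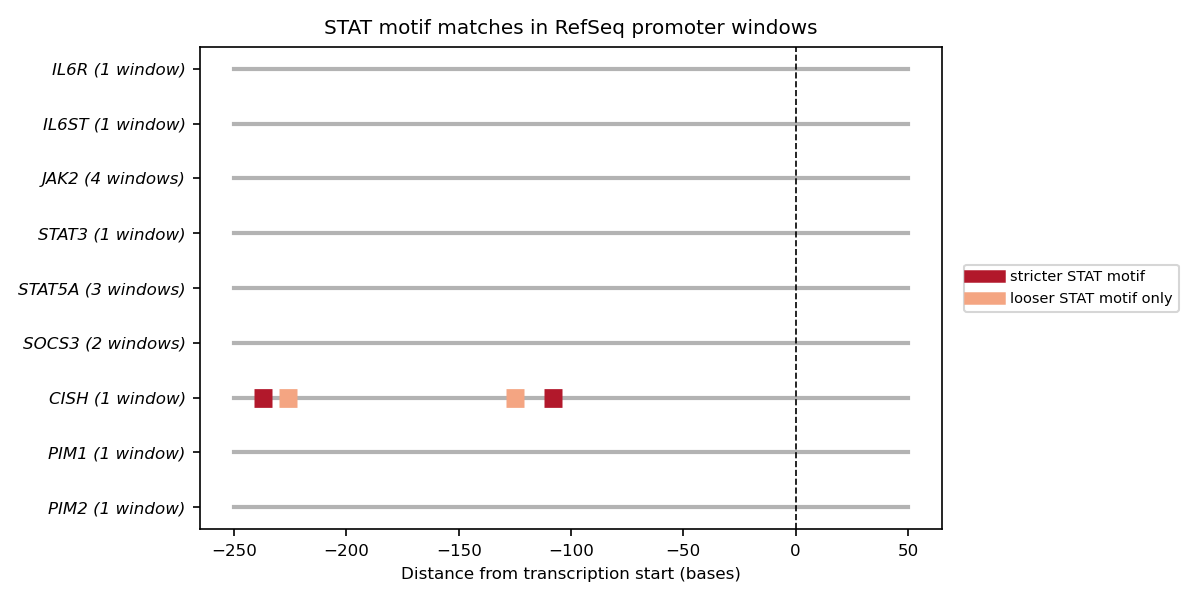
Positions of STAT motif matches in the RefSeq promoter windows of the 9 genes that had one, as distance in bases from the transcription start (dashed line). The horizontal axis runs from 250 bases before to 50 after the start, grey lines are windows and coloured blocks are matches; CISH has 4 blocks and the other genes have none.

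The first comparison was XG1 against AMO1 in DMSO, which asks how the pathway stood in the lines before treatment. The 10 genes split sharply between the lines. STAT5A, SOCS2 and CISH were at 33.4 FPKM or more in every XG1 library in DMSO and below 4 FPKM in every AMO1 library in DMSO, whereas IL6R and PIM2 were higher in AMO1. By limma over 12792 genes, 8 of the 10 were higher in XG1, where 45.0% of all tested genes were, and 2 were lower, where 19.8% were. JAK2, SOCS3 and CISH passed the filter on low values only through XG1 libraries. On the relative scale the same 8 were higher, beside 38.3% of tested genes, and the same 2 lower, beside 28.0%. Leaving out any single library of the comparison kept all 10 calls.

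CISH, an inhibitor induced by STAT5 that binds activated cytokine receptors, had 166, 161 and 210 FPKM in XG1 and 0.92, 1.07 and 0.94 FPKM in AMO1. The means differed by 184-fold, and on the log2(FPKM + 1) scale by 6.50 ± 0.15 (SE, adjusted p = 8.27e-16). CISH overlaps MAPKAPK3, and the sources used here hold no statement on strand. The part of MAPKAPK3 reads in the CISH level was not tested. MAPKAPK3 averaged 24.9 ± 1.64 FPKM in XG1 and 19.8 ± 1.72 FPKM in AMO1 (SD, n = 3 each). SOCS2, which dampens growth hormone and other STAT5 signals, had 142, 146 and 153 FPKM in XG1 and 2.81, 3.14 and 3.93 FPKM in AMO1, a 44.6-fold difference of means (log2 5.11 ± 0.22, adjusted p = 1.61e-12). Its antisense neighbour SOCS2-AS1 averaged 2.20 ± 1.80 FPKM in XG1 and 0.21 ± 0.21 FPKM in AMO1. STAT5A had 34.1, 33.4 and 40.4 FPKM in XG1, against 2.70, 3.40 and 2.83 FPKM in AMO1 (log2 3.22 ± 0.14, adjusted p = 1.91e-12). STAT5B, a near-identical factor whose gene overlaps it in RefSeq, averaged 14.5 ± 1.49 FPKM in XG1 and 5.20 ± 0.05 FPKM in AMO1. For all 3 genes the lowest XG1 library lay above the highest AMO1 library. The share of all genes that did so was not counted, and 45.0% of tested genes were called higher in XG1.

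The PIM kinases lay on opposite sides. PIM1 had 1328, 1194 and 1386 FPKM in XG1 and 83.4, 84.1 and 83.8 FPKM in AMO1, 15.6-fold higher in XG1 (log2 3.94 ± 0.28, adjusted p = 1.88e-09). PIM2 had 176, 164 and 197 FPKM in XG1 and 2412, 2609 and 2475 FPKM in AMO1, so it was 13.9-fold higher in AMO1 (log2 −3.80 ± 0.15, XG1 minus AMO1, adjusted p = 4.86e-13). The third kinase of the family, PIM3, went the way of PIM2, with 81.2 ± 1.39 FPKM in XG1 and 522 ± 52.2 FPKM in AMO1 (log2 −2.66, adjusted p = 2.85e-10).

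Receptor chains, JAK2, STAT3 and SOCS3 differed less on the log2(FPKM + 1) scale, which understates differences of low genes. By ratio of means JAK2 was 11-fold and SOCS3 6.2-fold higher in XG1. IL6R had 1.61, 1.38 and 3.31 FPKM in XG1, below the 7.80, 8.23 and 7.85 FPKM in AMO1 (log2 −1.58 ± 0.31, adjusted p = 0.000299). Its partner IL6ST had 4.79, 4.42 and 4.93 FPKM in XG1 and 1.94, 2.14 and 1.71 FPKM in AMO1 (log2 0.96 ± 0.16, adjusted p = 4.3e-05). The ligand-binding and the signalling chain of the IL6 receptor were thus each higher in a different line in DMSO. JAK2 had 8.28, 6.67 and 9.87 FPKM in XG1, against 0.55, 0.58 and 1.12 FPKM in AMO1 (log2 2.41 ± 0.22, adjusted p = 3.72e-08). INSL6, which overlaps JAK2, averaged 0.12 ± 0.01 FPKM in XG1 and 0.09 ± 0.01 FPKM in AMO1. STAT3, the main STAT of IL6 signalling, had 9.84, 8.40 and 10.4 FPKM in XG1 and 4.20, 5.79 and 5.02 FPKM in AMO1, and its log2 difference of 0.82 ± 0.22 was the smallest of the 10 (adjusted p = 0.00341). SOCS3, the inhibitor that binds IL6ST and JAKs, had 1.69, 2.52 and 2.71 FPKM in XG1 and 0.42, 0.55 and 0.15 FPKM in AMO1 (log2 1.27 ± 0.21, adjusted p = 6.34e-05).

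**Figure D2:**
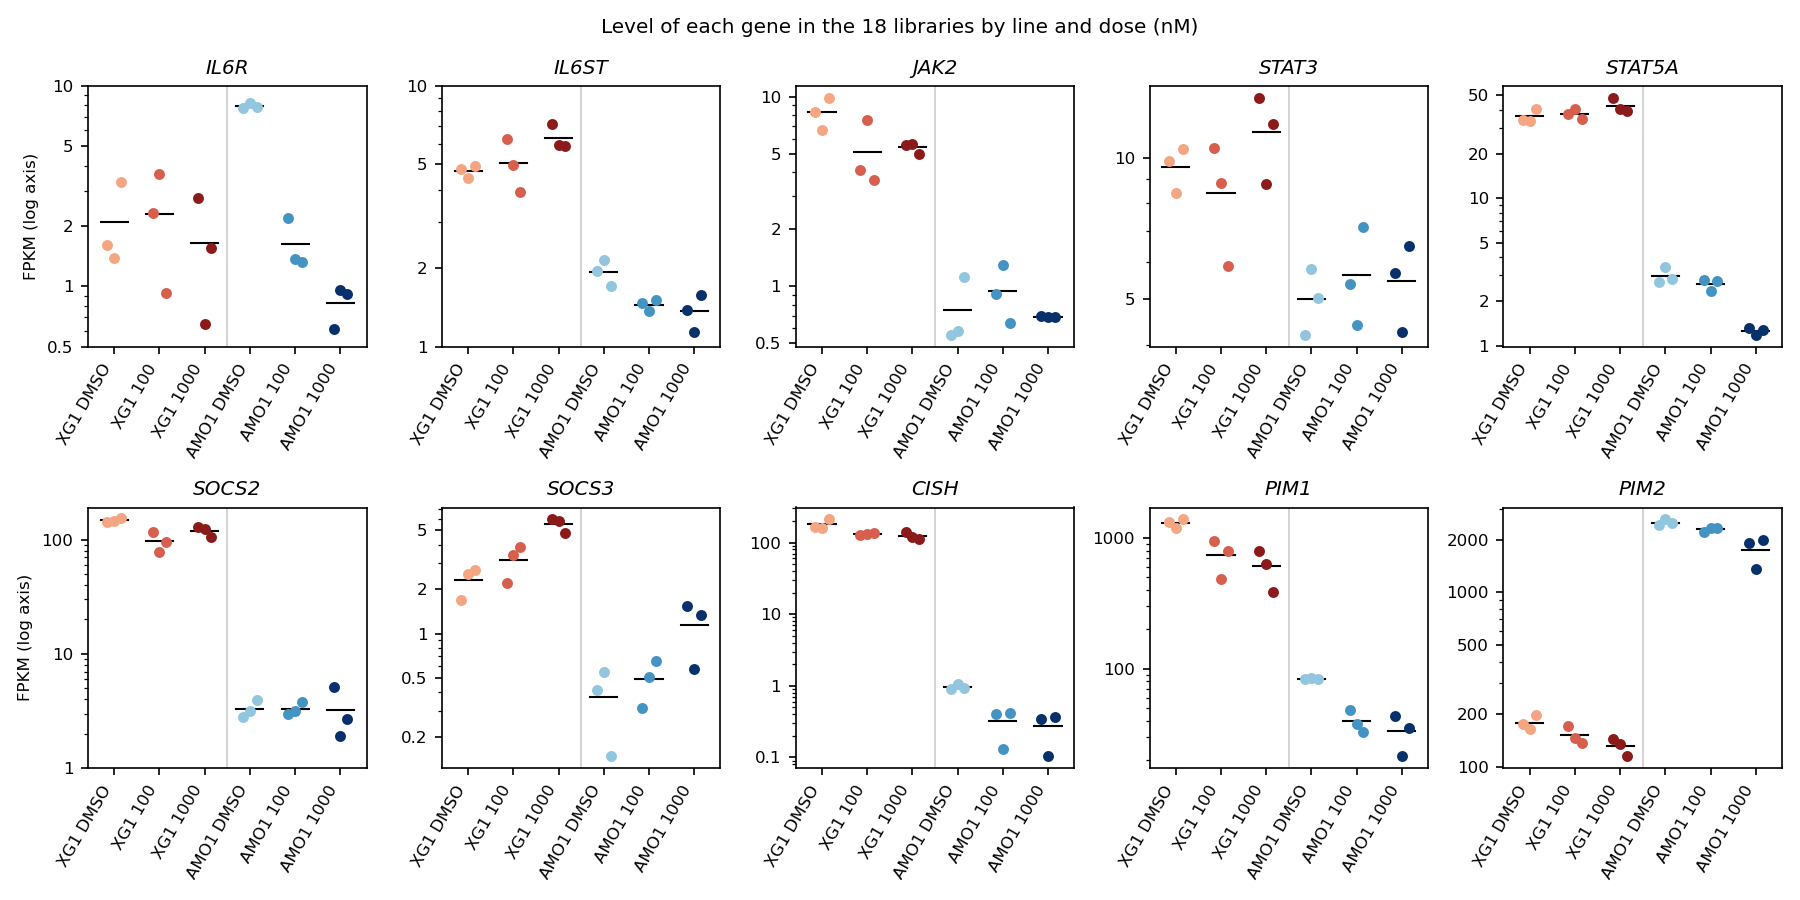
FPKM of each of the 10 genes (vertical log axis) in the 18 libraries, by line and dose of YKL-5-124 in nM; points are libraries and black bars are means of 3. CISH, SOCS2 and STAT5A lie in separate ranges in the lines, PIM2 is the one gene above 1300 FPKM throughout AMO1, and IL6R in AMO1 is 7.80 or more in DMSO and under 2.20 at both doses.

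Of 58 further genes fixed as other parts of the pathway, 49 were tested between the lines. In XG1 18 were higher and 20 lower, beside 45.0% and 19.8% of all tested genes. Relative to the median gene 18 were higher, beside 38.3%, and 23 lower, beside 28.0%. SOCS1, the inhibitor that acts directly on JAKs, averaged 210 ± 46.7 FPKM in XG1 and 1.37 ± 0.44 FPKM in AMO1 (log2 6.47, adjusted p = 1.3e-11). STAT4 was higher in XG1 by 2.82 and BCL2L1, a survival gene and STAT5 target, by 2.24 (adjusted p = 8.68e-08 and 1.68e-07), and neither passed the filter within AMO1. The largest difference the other way was in IRF4, the plasma-cell transcription factor (log2 −5.70, adjusted p = 4.21e-14), with PRDM1 at −3.66 and the phosphatase PTPN6 at −3.35. None of these 3 passed the filter within XG1, so they were tested through their AMO1 libraries. MCL1, the survival gene that plasma cells depend on, averaged 154 ± 4.55 FPKM in XG1 and 940 ± 40.0 FPKM in AMO1 (log2 −2.60, adjusted p = 6.21e-10). MYC differed by 0.48 and JUNB by 0.02 (adjusted p = 0.285 and 0.931). IL6 transcripts averaged 0.38 ± 0.28 FPKM in XG1 and 0.09 ± 0.01 FPKM in AMO1 in DMSO, and did not pass the filter in any fit.

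**Figure D3:**
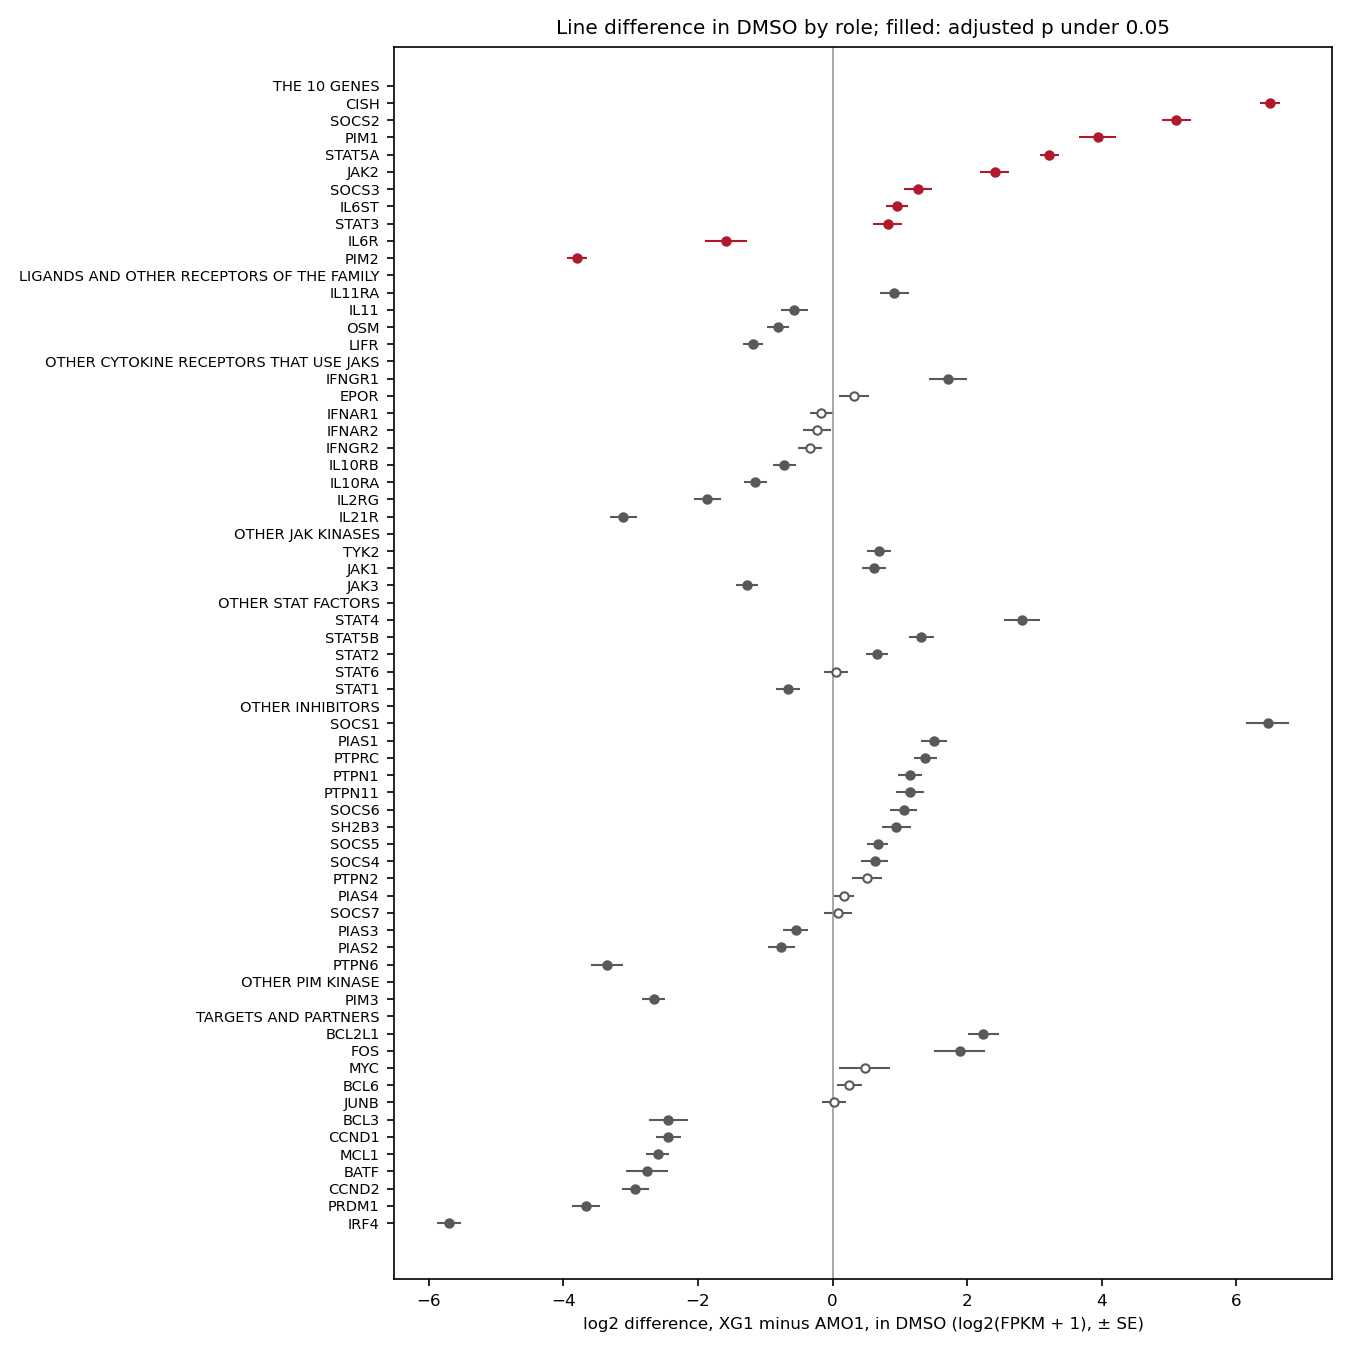
Difference between XG1 and AMO1 in DMSO on the log2(FPKM + 1) scale (horizontal axis, XG1 minus AMO1) for the 10 genes (red) and the tested genes of the wider pathway (grey), by role. Points are limma estimates with SE, n = 3 each, and filled points have adjusted p under 0.05; CISH at 6.50 and SOCS1 at 6.47 are farthest to the right and IRF4 at −5.70 farthest to the left.

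In AMO1 with YKL-5-124, IL6R fell at both doses on both scales. PIM1 fell at both doses as deposited, and averaged 39.7% of DMSO at 1000 nM, beside 39.6% for the sum of all genes. At 1000 nM, 7 of the 10 genes passed the filter and 4 of the 7 fell, a share that stands beside 65.7% of all tested genes lower. At 100 nM 2 of the 7 fell, beside 29.5% of all tested genes. Their median log2 difference at 1000 nM was −0.53, against −0.77 for all tested genes, and at 100 nM −0.13 against −0.35. On the relative scale at 1000 nM 3 of the 7 were higher, beside 24.0% of tested genes, and 1 was lower, beside 24.2%.

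IL6R showed the largest change of the 7 tested genes at both doses. It had 7.80, 8.23 and 7.85 FPKM in AMO1 with DMSO, 2.19, 1.36 and 1.32 FPKM at 100 nM, and 0.61, 0.95 and 0.92 FPKM at 1000 nM. No library of any group overlapped the next, and the means were 20.4% of DMSO at 100 nM and 10.4% at 1000 nM. The log2 difference from DMSO was −1.79 ± 0.19 at 100 nM (adjusted p = 1.46e-05) and −2.30 ± 0.19 at 1000 nM (adjusted p = 2.97e-07), and was past the threshold on the relative scale too, at −1.39 and −1.62. Between the doses it was −0.51, with a 95% interval from −0.91 to −0.11, and did not pass the adjustment over all genes. Its co-receptor IL6ST had 1.94, 2.14 and 1.71 FPKM in DMSO, 1.47, 1.37 and 1.50 FPKM at 100 nM and 1.38, 1.14 and 1.58 FPKM at 1000 nM. The treated IL6ST libraries all lay below DMSO, but the log2 difference at 1000 nM was −0.31, with an interval from −0.67 to 0.05, and on the relative scale it was 0.30.

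PIM1 had 83.4, 84.1 and 83.8 FPKM in AMO1 with DMSO, 48.3, 38.0 and 32.9 FPKM at 100 nM and 43.3, 21.3 and 35.2 FPKM at 1000 nM. All treated libraries lay below DMSO and the doses overlapped. It fell by 1.07 at 100 nM (SE 0.25, adjusted p = 0.0057) and by 1.36 at 1000 nM (SE 0.25, adjusted p = 0.000293) on the log2 scale. On the relative scale it fell by 0.64 at 100 nM (adjusted p = 0.0125), whereas −0.40 at 1000 nM was not past the threshold (adjusted p = 0.0609). PIM2 had 2412, 2609 and 2475 FPKM in DMSO, 2214, 2322 and 2321 FPKM at 100 nM and 1914, 1354 and 1975 FPKM at 1000 nM. It fell by 0.53 at 1000 nM (SE 0.18, adjusted p = 0.0193), but relative to the median gene it was higher, by 0.45 (adjusted p = 0.000315). The fall was not called without DMSO replicate 2 or 3 (adjusted p = 0.074 and 0.0561). At 100 nM the PIM2 difference was −0.13 as deposited and 0.31 on the relative scale (adjusted p = 0.619 and 0.00492). PIM3 fell by 1.20 at 1000 nM and 0.86 at 100 nM (adjusted p = 0.000245 and 0.00823), and was −0.22 and −0.42 on the relative scale (adjusted p = 0.0606 and 0.00483). Replicate 2 at 1000 nM was the lowest library for PIM1 and PIM2, and its size factor was 0.407, against 0.634 and 0.637 for the other replicates. Without it PIM1 differed by −1.08 and PIM2 by −0.36 (adjusted p = 0.00021 and 0.0021).

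STAT5A was lower at 1000 nM than at 100 nM as deposited, but the dose difference did not pass the threshold on the relative scale. It had 2.70, 3.40 and 2.83 FPKM in AMO1 with DMSO, 2.79, 2.36 and 2.77 FPKM at 100 nM and 1.31, 1.19 and 1.27 FPKM at 1000 nM. The 100 nM libraries overlapped DMSO and all 1000 nM libraries lay below both. It fell by 0.81 at 1000 nM against DMSO (SE 0.17, adjusted p = 0.000797), and by 0.69 against 100 nM (adjusted p = 0.0172), where 23.4% of all tested genes were lower and STAT5A was the one call of the 7. That call was lost without 100 nM replicate 1 or 3 (adjusted p = 0.058 and 0.064) and with no filter (adjusted p = 0.0596). On the relative scale STAT5A differed by −0.35 between the doses (adjusted p = 0.166) and by −0.16 from DMSO at 1000 nM (adjusted p = 0.343). Its mean at 1000 nM was 42.2% of DMSO, beside 39.6% for the sum of all genes. STAT3 behaved differently, with 4.20, 5.79 and 5.02 FPKM in DMSO, 5.39, 4.42 and 7.12 FPKM at 100 nM and 5.67, 4.27 and 6.50 FPKM at 1000 nM. Its groups overlapped, its log2 difference at 1000 nM was 0.10 with an interval from −0.35 to 0.56, and relative to the median gene it was 0.92 higher (adjusted p = 0.000743). SOCS2 had 2.81, 3.14 and 3.93 FPKM in DMSO, 2.98, 3.16 and 3.79 FPKM at 100 nM and 5.08, 1.91 and 2.69 FPKM at 1000 nM. Its groups overlapped too, with −0.08 at 1000 nM as deposited and 0.65 on the relative scale (adjusted p = 0.767 and 0.024).

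CISH, JAK2 and SOCS3 were under the filter in AMO1, which asked for 1 FPKM in 3 libraries. CISH had 0.92, 1.07 and 0.94 FPKM in DMSO, 0.41, 0.13 and 0.42 FPKM at 100 nM and 0.35, 0.10 and 0.37 FPKM at 1000 nM, so every treated library lay below every DMSO library. With no filter on low values its log2 difference was −0.59 at 100 nM and −0.64 at 1000 nM (limma, adjusted p = 0.0305 and 0.00677). These are differences between low values, and replicate 2 at each dose lay near its library's floor of 0.079 FPKM. No relative-scale value was computed for CISH in AMO1, where the sum of all genes was 62.2% and 39.6% of DMSO. MAPKAPK3, which overlaps CISH, averaged 19.8 ± 1.72 FPKM in AMO1 with DMSO, 12.9 ± 1.80 FPKM at 100 nM and 8.71 ± 3.32 FPKM at 1000 nM (SD, n = 3 each), and its part in the CISH difference was not tested. SOCS3 ran the other way, with 0.42, 0.55 and 0.15 FPKM in DMSO, 0.31, 0.51 and 0.65 FPKM at 100 nM and 1.54, 0.57 and 1.35 FPKM at 1000 nM. The 1000 nM libraries lay above DMSO, and without the filter the difference was 0.63 (adjusted p = 0.0617). JAK2 had 0.55, 0.58 and 1.12 FPKM in DMSO and 0.69 FPKM in each library at 1000 nM.

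Across the wider pathway in AMO1, 46 of the 58 genes were tested. At 1000 nM 3 were higher, beside 2.51% of all tested genes. A further 22 were lower, a smaller share than the 65.7% over all tested genes. MYC, the growth transcription factor, fell by 2.46 (adjusted p = 4.01e-05), IRF4 by 1.65 and the cyclin CCND2 by 1.51. FOS, a component of the AP-1 factor, rose by 1.70 (adjusted p = 0.000748), SOCS1 by 0.80 (adjusted p = 0.0164) and the IL11 receptor chain IL11RA by 0.61 (adjusted p = 0.0182). MCL1 differed by −0.23 as deposited (adjusted p = 0.342) and by 0.75 on the relative scale. JUNB, a STAT3 target, differed by 0.36 (adjusted p = 0.174), and by 0.61 without 1000 nM replicate 2 (adjusted p = 0.00115). At 100 nM 1 gene of the 46 rose, IL11RA by 0.86, beside 2.73% of all tested genes. There were 7 falls, beside 29.5% of all tested genes, among them MYC by 1.25, IRF4 by 0.78 and PIM3. Relative to the median gene the split turned round. At 1000 nM 19 were higher, beside 24.0% of tested genes, and 4 lower, beside 24.2%. At 100 nM 16 were higher, beside 14.0%, and 3 lower, beside 17.1%. Between the doses 7 of the 46 were lower at 1000 nM, beside 23.4% of all tested genes. Among these were MYC by 1.21, IRF4 by 0.88 and CCND2 by 0.80. The MYC call was lost without any one of the 100 nM libraries (adjusted p 0.0543 to 0.0731) and on the relative scale (−0.71, adjusted p = 0.176). There 3 of the 46 were higher at 1000 nM than at 100 nM, beside 1.74% of tested genes, and 1 was lower, beside 4.23%.

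**Figure D4:**
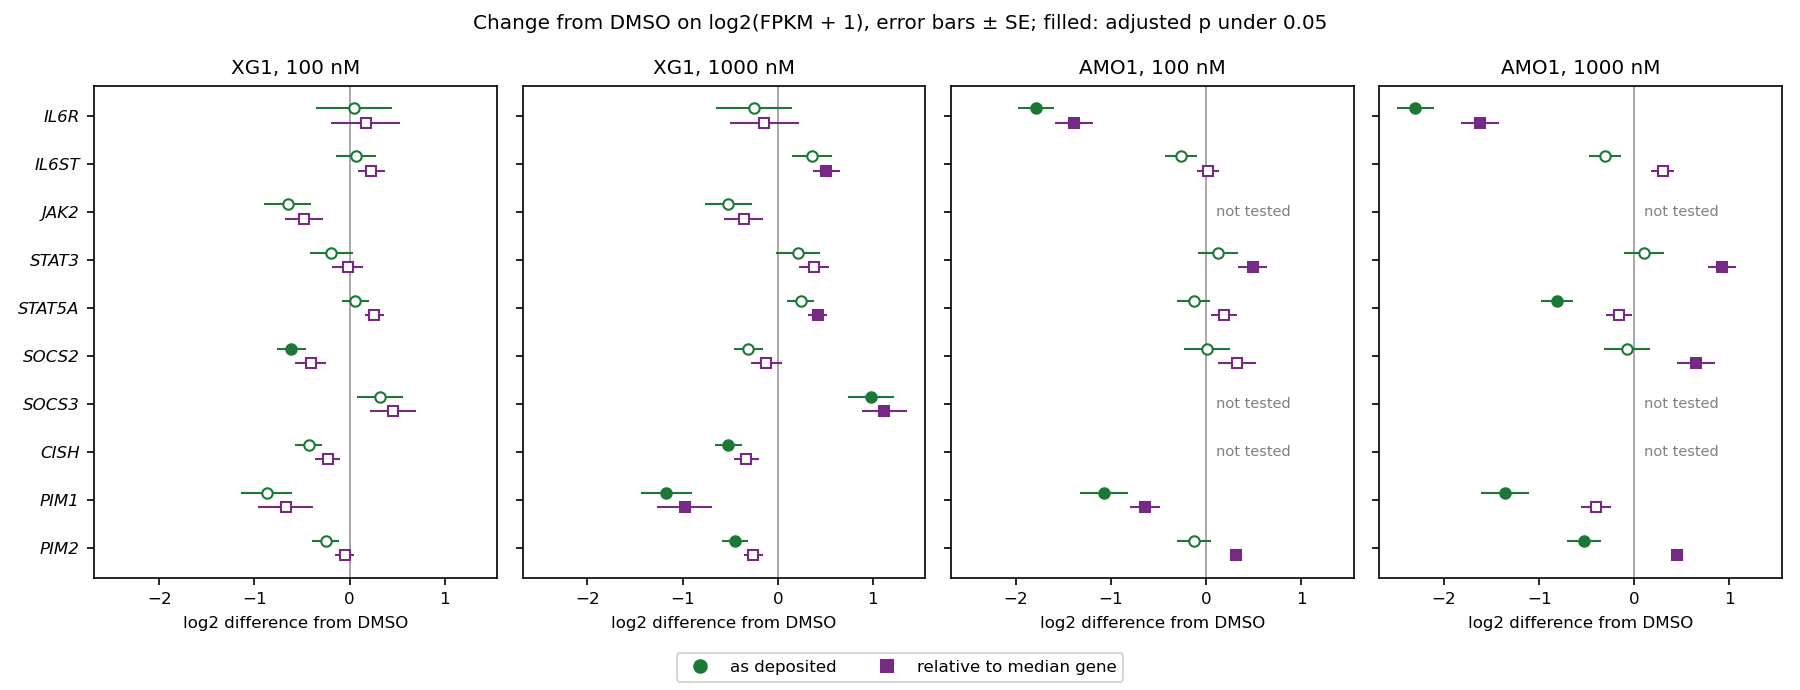
Log2 difference of treated from DMSO libraries for each gene (horizontal axis, log2(FPKM + 1)), in XG1 and AMO1 at 100 nM and 1000 nM; green circles are values as deposited, purple squares are relative to the median gene, bars are SE, n = 3 each. Filled symbols have adjusted p under 0.05; IL6R in AMO1 is filled on both scales at both doses, and PIM2 in AMO1 at 1000 nM is filled at −0.53 and at 0.45.

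In XG1 at 1000 nM SOCS3 rose, whereas PIM1, PIM2 and CISH fell. At 1000 nM 3 of the 10 genes fell, beside 13.2% of all tested genes, and 1 rose, beside 3.69%. At 100 nM 1 fell, beside 10.0% of all tested genes. The median log2 difference of the 10 was −0.28 at 1000 nM and −0.22 at 100 nM, against −0.15 for all tested genes at each dose. On the relative scale at 1000 nM 3 genes were higher, beside 9.57%, and 1 was lower, beside 10.3%. Replicates at 100 nM were less alike than those of the other XG1 groups, with Spearman correlations over all genes between 0.817 and 0.956.

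SOCS3 had 1.69, 2.52 and 2.71 FPKM in XG1 with DMSO, 2.18, 3.39 and 3.85 FPKM at 100 nM and 5.93, 5.76 and 4.77 FPKM at 1000 nM. The 100 nM libraries overlapped DMSO and those at 1000 nM lay above both groups. At 1000 nM it averaged 238% of DMSO and rose by 0.98 (SE 0.24, adjusted p = 0.0169), and by 1.12 on the relative scale (adjusted p = 0.0104). Leaving out DMSO replicate 1 (adjusted p = 0.0773) ended the call, as did leaving out 1000 nM replicate 1 or 2 (adjusted p = 0.0542 and 0.0638), with differences of 0.84, 0.93 and 0.95.

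PIM1 had 1328, 1194 and 1386 FPKM in XG1 with DMSO, 955, 481 and 788 FPKM at 100 nM and 797, 633 and 384 FPKM at 1000 nM. Each treated library lay below every DMSO library, and the doses overlapped. PIM1 fell at 1000 nM by 1.17 (SE 0.27, adjusted p = 0.0143), and by 0.98 on the relative scale (adjusted p = 0.042). Without DMSO replicate 3 the difference was −1.12 and missed the threshold (adjusted p = 0.0545). At 100 nM it was −0.87, with an interval from −1.47 to −0.27 and an adjusted p of 0.0606. Without 100 nM replicate 1 it was −1.08 (adjusted p = 0.0283). PIM2 had 176, 164 and 197 FPKM with DMSO, 170, 147 and 136 FPKM at 100 nM and 143, 135 and 115 FPKM at 1000 nM. It fell at 1000 nM by 0.45 (SE 0.14, adjusted p = 0.0436), was −0.26 on the relative scale (adjusted p = 0.0951), and was not called when any library but 1000 nM replicate 1 was left out (adjusted p 0.0587 to 0.171).

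CISH had 166, 161 and 210 FPKM in XG1 with DMSO, 127, 131 and 138 FPKM at 100 nM and 140, 121 and 111 FPKM at 1000 nM. All treated libraries lay below DMSO, at means of 73.6% and 69.3% of it. The fall of 0.52 at 1000 nM was called (SE 0.14, adjusted p = 0.0251), but not on the relative scale (−0.33, adjusted p = 0.112), nor without DMSO replicate 1 or 3 or 1000 nM replicate 2 or 3 (adjusted p 0.0543 to 0.106). At 100 nM it was −0.43 (adjusted p = 0.0646). SOCS2 had 142, 146 and 153 FPKM with DMSO, 117, 78.2 and 96.0 FPKM at 100 nM and 128, 123 and 106 FPKM at 1000 nM. Treated libraries lay below DMSO at both doses. The call was at 100 nM, where SOCS2 fell by 0.61 (SE 0.15, adjusted p = 0.0251). It was −0.46 without 100 nM replicate 2, its lowest library (adjusted p = 0.0713), and −0.61 without replicate 3 (adjusted p = 0.0547). Leaving out any of the DMSO libraries also ended the call (adjusted p 0.0639 to 0.0937), and on the relative scale it was −0.41 (adjusted p = 0.115). At 1000 nM the difference was −0.31, with an interval from −0.64 to 0.03.

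The receptor chains, JAK2 and the STATs did not pass the threshold in XG1 as deposited. IL6R had 1.61, 1.38 and 3.31 FPKM with DMSO, 2.31, 3.64 and 0.92 FPKM at 100 nM and 2.75, 0.65 and 1.55 FPKM at 1000 nM. Its groups overlapped and its difference at 1000 nM was −0.25, with an interval from −1.12 to 0.61. IL6ST had 4.79, 4.42 and 4.93 FPKM with DMSO, 6.27, 4.98 and 3.93 FPKM at 100 nM and 7.17, 5.96 and 5.91 FPKM at 1000 nM, where all libraries lay above DMSO. It differed by 0.36 at 1000 nM (adjusted p = 0.27), and by 0.51 on the relative scale (adjusted p = 0.0288). STAT5A had 34.1, 33.4 and 40.4 FPKM with DMSO, 37.5, 40.6 and 34.7 FPKM at 100 nM and 48.1, 40.6 and 39.2 FPKM at 1000 nM, with overlapping groups. It differed by 0.24 at 1000 nM (adjusted p = 0.298), and by 0.42 on the relative scale (adjusted p = 0.0189). JAK2 had 8.28, 6.67 and 9.87 FPKM with DMSO, 4.13, 7.50 and 3.63 FPKM at 100 nM and 5.56, 5.64 and 5.01 FPKM at 1000 nM. Its 1000 nM libraries lay below DMSO, with a difference of −0.52 and an interval from −1.07 to 0.03. At 100 nM it was −0.65, and without replicate 2 of that dose −0.91 (adjusted p = 0.0311). STAT3 had 9.84, 8.40 and 10.4 FPKM with DMSO, 10.5, 8.85 and 5.88 FPKM at 100 nM and 13.4, 8.80 and 11.8 FPKM at 1000 nM, and its groups overlapped.

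Between the doses in XG1, limma called 0 of the 10 genes, beside 0.390% of all tested genes. At an unadjusted p under 0.05 there was 1, SOCS3, with a difference of 0.67 at 1000 nM against 100 nM and an interval from 0.14 to 1.19, and with one prior variance for all genes the adjusted count was again 0.

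In the wider pathway 39 of the 58 genes were tested in XG1. At 1000 nM 4 rose, beside 3.69% of all tested genes. They were IL11RA by 1.27 (adjusted p = 0.00483), JUNB by 1.23 (adjusted p = 0.00022), BCL2L1 by 0.87 (adjusted p = 0.0219) and JAK1, the kinase that IL6ST relies on most, by 0.60 (adjusted p = 0.0323). The BCL2L1 call was lost without any one of the DMSO libraries or without 1000 nM replicate 1 or 3 (adjusted p 0.0561 to 0.0803). The 2 that fell, beside 13.2% of all tested genes, were BATF, an AP-1 partner, by 1.44 and PIAS1, an inhibitor of STAT factors, by 0.72 (adjusted p = 0.0151 and 0.0222). At 100 nM 2 rose, IL11RA by 1.09 and JUNB by 0.96, beside 2.48% of all tested genes. There 5 fell, beside 10.0%, the largest being BATF by 1.48, MYC by 1.36 and the shared cytokine receptor chain IL2RG by 1.19. The MYC call was lost on the relative scale (−1.17, adjusted p = 0.0588) and without DMSO replicate 1 or 3 (adjusted p = 0.0634 and 0.0742). MYC at 1000 nM was −0.72 (adjusted p = 0.147), and MCL1 at 1000 nM was 0.03 and PIM3 −0.22 (adjusted p = 0.903 and 0.312). Relative to the median gene 8 of the 39 were higher at 1000 nM, beside 9.57% of tested genes, and 2 lower, beside 10.3%. At 100 nM 5 were higher, beside 7.31%, and 4 lower, beside 7.25%.

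The difference between the lines' responses was tested directly, as XG1 minus AMO1, in a fit of all 18 libraries. At 1000 nM 3 of the 10 genes were called, all less reduced or more raised in XG1, beside 32.8% of all tested genes. Relative to the median gene 2 were higher, beside 8.46%, and 2 lower, beside 8.21%. IL6R differed by 2.04 ± 0.44 (SE, adjusted p = 0.00261) and STAT5A by 1.05 ± 0.20 (adjusted p = 0.000935), and both were called on the relative scale, at 1.57 and 0.57. IL6R had only 1.61, 1.38 and 3.31 FPKM in XG1 with DMSO. Even its complete loss there would have been smaller on the log2(FPKM + 1) scale than the fall in AMO1 at either dose. Part of the IL6R difference was thus fixed by the low start in XG1. IL6ST differed by 0.67 ± 0.22 (adjusted p = 0.0279), but by 0.14 on the relative scale (adjusted p = 0.575), and its call was lost on leaving out any of 5 libraries (adjusted p 0.0505 to 0.0704), XG1 DMSO replicate 2, XG1 1000 nM replicate 1, AMO1 DMSO replicates 1 and 2 and AMO1 1000 nM replicate 2. PIM2 differed by 0.09 as deposited and by −0.75 relative to the median gene (adjusted p = 0.783 and 0.000176), and SOCS2 by −0.22 and −0.83 (adjusted p = 0.607 and 0.0449). PIM1 differed by 0.20 with an interval from −0.65 to 1.04, so a difference of this size could not be told from 0. At 100 nM IL6R was called, at 1.83 ± 0.44 (adjusted p = 0.0209), beside 5.37% of all tested genes. That call was lost without XG1 DMSO replicate 1 or 2, XG1 100 nM replicate 2, AMO1 DMSO replicate 2 or AMO1 100 nM replicate 2 (adjusted p 0.0514 to 0.0608). It was also lost with a pseudocount of 0.1 FPKM.

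Over the 6 groups the order of levels followed the line for most of the 10 genes. For CISH, SOCS2, STAT5A, PIM1, IL6ST, JAK2 and SOCS3 every XG1 group mean was above every AMO1 group mean, and no library of the lowest XG1 group overlapped the highest AMO1 group. For PIM2 the order was AMO1 first at every dose, again with no overlap. The share of all genes separated in this way was not counted. Line differences were common, with 45.0% of all tested genes higher in XG1 in DMSO and 19.8% lower. STAT3 had XG1 groups first, but neighbouring groups overlapped throughout. IL6R had AMO1 in DMSO on top with no overlap, then the 3 XG1 groups and AMO1 at 100 nM, each overlapping its neighbour, and AMO1 at 1000 nM at the bottom. The genes whose profile was most like each of the 10 were found by Pearson correlation of log2 values on the relative scale over the 18 libraries, after subtracting each line's mean, among 12791 other genes. These libraries share doses and scaling, so the values are descriptions. IL6R was most like RHEBL1 (r = 0.91) and DHRS2 (0.90), PIM1 most like PABPC4 (0.91), and PIM2 most like LMNA (0.90) and DUSP6 (0.88). CISH was most like PRIM1 (0.87) and IRF2BP2 (0.85), SOCS2 like GOLGA5 (0.87) and MAN1A1 (0.86), and SOCS3 like SEC23B and FADS3 (0.91 each). IL6ST was most like EML4 (0.92) and CCDC28A (0.91), STAT3 like SECISBP2L and KDM4C (0.92 each), STAT5A like ANKLE2 (0.83) and SERPINB9 (0.82), and JAK2 like MIR663AHG (0.86) and KIF3A (0.82). None of the 10 appeared among the 2 nearest genes of another. Within the 10 by the same measure, IL6ST and SOCS3 had r = 0.74, IL6ST and STAT3 0.73, CISH and PIM1 0.69, and IL6R and SOCS2 −0.75.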

How the data were processed

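QuantSeq 3′ libraries from 18 samples were used. HISAT2 alignment to hg19 and Cuffnorm are named, with no version, per the submitters' processing notes. The deposited values are FPKM for 26249 genes and 92 spike-ins. No value was 0, and each library had a floor between 0.0711 and 0.158 FPKM. Read depth was not given, so precision comes from the replicates.

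The labels gave each sample's line and dose. Values were taken as log2(FPKM + 1). Genes that reached 1 FPKM in 3 or more libraries of a fit were fitted in limma 3.58.1 (R 4.3.3) with a mean-dependent prior variance, two-sided. The threshold was a Benjamini-Hochberg adjusted p of 0.05 over all tested genes. Fold changes on this scale understate those of low genes. Each line's 9 libraries were fitted for doses, and all 18 for line differences. In each fit size factors by median ratio gave the relative scale. On simulated data with log2 changes of 1 and 2, the fit recovered 57.8% and 95.6% of changed genes in AMO1 and 49.5% and 91.1% in XG1. In that simulation only a small share of genes changed. In the real data 7164 of 10503 genes were called in AMO1 at 1000 nM, which makes the adjusted threshold easier to pass. The simulated shares therefore do not give the recovery in the reported tests.

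The 10 genes, the 58 pathway genes and the marker lists were chosen with earlier results of these data known. All 10 genes are named throughout. Another gene with a profile like that of PIM1 is not reported here. Of the 58, up to 3 called rises and 3 called falls per comparison are named, with MCL1, MYC, BCL2L1, JUNB and PIM3, and others were chosen after their values were seen. Overlapping genes and promoters are from RefSeq (GRCh38.p14). Python 3.11.15 and matplotlib 3.10.9 were used for sequences and plots.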

Additional observations from a re-analysis of the deposited data

Results flagged for a closer look

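Several genes responded differently to YKL-5-124 in the lines, by the test of the difference itself (XG1 minus AMO1, limma, 18 libraries). At 1000 nM these were IL6R (log2 2.04, adjusted p = 0.00261), STAT5A (1.05, adjusted p = 0.000935) and IL6ST (0.67, adjusted p = 0.0279) among the 10 genes. Of the pathway genes named in every comparison they were MYC (1.74, adjusted p = 0.0213), BCL2L1 (1.01, adjusted p = 0.0227), PIM3 (0.98, adjusted p = 0.00502) and JUNB (0.87, adjusted p = 0.0132). At 100 nM it was IL6R (1.83, adjusted p = 0.0209). At both doses part of the IL6R difference was fixed by its low level in XG1 with DMSO, which left less room for a fall than in AMO1. The sign is that of the median tested gene, which differed by 0.55 between the responses at 1000 nM and 0.17 at 100 nM. On the relative scale none of the 4 pathway genes was called, with MYC at 0.96, BCL2L1 at 0.69, PIM3 at 0.14 and JUNB at 0.04 (adjusted p = 0.215, 0.0876, 0.502 and 0.918). BCL2L1 did not pass the filter within AMO1, and its call was lost with a pseudocount of 0.1 FPKM (adjusted p = 0.0812), with no filter (adjusted p = 0.0568) and without XG1 DMSO replicate 2, XG1 1000 nM replicate 1, AMO1 DMSO replicate 1 or AMO1 1000 nM replicate 2 (adjusted p 0.0521 to 0.0644). The MYC call was lost with no filter (adjusted p = 0.0608) and without XG1 DMSO replicate 2, XG1 1000 nM replicate 1 or AMO1 1000 nM replicate 2 (adjusted p 0.0526 to 0.0571). The cells labelled XG1 and AMO1 also differ in their cell type markers, and the part of that difference in these responses was not tested.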

How the results depend on the processing

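For the 10 genes and the 5 pathway genes named in every comparison, 6 results had the other sign on the relative scale and were called on one of the scales or both. In AMO1 at 1000 nM SOCS2 came to 0.65, PIM2 to 0.45 and MCL1 to 0.75, at 100 nM PIM2 to 0.31, and in the responses to 1000 nM PIM2 to −0.75 and MCL1 to −0.58; the cause was not tested. It called 4 of the 10 genes in AMO1 at 100 nM (3270 of all genes), 0 between the AMO1 doses, 0 in XG1 at 100 nM (1719 of all genes) and 2 in the responses to 100 nM, and over all genes 627 between the AMO1 doses (2482 as reported), 115 between the XG1 doses (46), 2132 in the responses to 1000 nM (4390) and 1223 in those to 100 nM (797). With no filter, which tests more genes, it was 0 of the 10 between the AMO1 doses, in XG1 at either dose and in the responses to 100 nM, and over all genes 1944 in AMO1 at 100 nM (3386), 521 between the AMO1 doses, 1153 in XG1 at 1000 nM (1994), 674 at 100 nM (1474), 9 between the XG1 doses and 15163 between the lines in DMSO (8292). A pseudocount of 0.1 FPKM gave 2 of the 10 between the AMO1 doses (2581 of all genes) and 0 in the responses to 100 nM. One prior variance for all genes gave 2 in XG1 at 1000 nM (1646 of all genes) and 0 at 100 nM (1123 of all genes), and 4 genes in all between the XG1 doses. A fit of 6 libraries, chosen after seeing the data, gave 2 in XG1 at 100 nM (1098 of all genes). Correlations of deviations between same-numbered replicates ran from −0.178 to 0.125 in AMO1 (median −0.002) and from −0.044 to 0.157 in XG1 (median 0.045). Between different numbers they ran from −0.171 to 0.168 in AMO1 (median 0.02) and from −0.137 to 0.093 in XG1 (median −0.023). Pairing of replicates in XG1 was therefore not excluded. With the replicate block, 2 of the 10 were called in XG1 at 100 nM (1250 of all genes) and 0 in the responses to 100 nM, with 1461 genes between the AMO1 doses and 513 in the responses to 100 nM. Leaving out 1 library gave 3 to 4 of the 10 in AMO1 at 1000 nM, 2 at 100 nM, 0 to 1 between its doses, 1 to 3 in XG1 at 1000 nM, 0 to 2 at 100 nM, 10 between the lines in DMSO, 2 to 3 in the responses to 1000 nM and 0 to 1 in those to 100 nM. Over all genes it gave 1812 to 2613 in AMO1 at 100 nM, 519 to 3437 between its doses, 1047 to 1564 in XG1 at 1000 nM, 571 to 1876 at 100 nM, 2 to 82 between its doses and 430 to 1136 in the responses to 100 nM. It also gave 6067 to 7201 in AMO1 at 1000 nM, 7514 to 7897 between the lines in DMSO and 3227 to 4771 in the responses to 1000 nM. With all libraries kept, 10503 genes were tested in AMO1, 11810 in XG1 and 12792 across the lines. For the 10 genes singly, 571 of these leave-one-out results kept direction and side of the threshold, 32 lost the call and 3 gained one. With 3 libraries a group and no read depth, changes under about 1 on the log2 scale may be missed.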

Other observations

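Of the other inhibitors in the wider pathway, 1 of 15 was higher and 10 were lower in AMO1 at 1000 nM, a share near that of all tested genes, where 2.51% rose and 65.7% fell. After division by size factors 5 of the 15 were higher and 0 lower, beside 24.0% and 24.2% of all tested genes. In XG1 at 1000 nM 1 of the 14 tested was lower, beside 13.2% of all tested genes. SOCS1 averaged 210 ± 46.7 FPKM in XG1 with DMSO, 137 ± 49.6 at 100 nM and 134 ± 45.5 at 1000 nM, and 1.37 ± 0.44, 2.75 ± 1.46 and 3.18 ± 1.13 FPKM at the same doses in AMO1 (SD, n = 3 each). The difference between the lines' responses to 1000 nM was −1.48 (XG1 minus AMO1, limma, adjusted p = 0.0201), opposite in sign to that of the median gene.

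FOS averaged 19.9 ± 3.17 FPKM in XG1 with DMSO, 15.6 ± 9.05 at 100 nM and 20.0 ± 3.98 at 1000 nM, and 4.74 ± 1.63, 8.11 ± 1.30 and 19.6 ± 11.6 FPKM at the same doses in AMO1. Its responses to 1000 nM differed by −1.70 (adjusted p = 0.0224), and relative to the median gene by −2.47. JUNB averaged 34.8 ± 1.75, 68.7 ± 5.32 and 83.1 ± 7.81 FPKM over the doses in XG1, and 34.3 ± 1.44, 40.2 ± 4.34 and 45.5 ± 12.9 FPKM in AMO1.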
